A study of Macaca mulatta with 30 samples.

Results

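The axon guidance ligands and receptors comprised the semaphorins, plexins, SLITs, ROBOs, netrins and netrin receptors, selected by gene symbol from the fetal lung and fetal hippocampus of rhesus macaques exposed to antenatal betamethasone. The rule took symbols that begin with SEMA, PLXN, ROBO, UNC5 or NTN, together with SLIT1 to SLIT3, DCC and NEO1. It gave 47 genes with a row in both count tables, of 30246 identifiers listed for lung and 32386 for hippocampus. A further 3 symbols of the rule, NTN1, NTN3 and NTN5, had a row in neither count table and so were not analysed here. Of the 47 genes, 46 reached the read minimum in lung and 46 in hippocampus, and 45 reached it in both. UNC5D was the gene under the minimum in lung, with 24 reads in all and 7 libraries at 0, and UNC5CL was the one in hippocampus, with 90 reads. Genes entered by symbol and that minimum (7 reads in 3 libraries for lung and 5 for hippocampus), not by a difference between groups. The set of members was, however, chosen with earlier results of these data known. The prefix also admitted UNC50, a Golgi protein that is no netrin receptor, and UNC5CL, a UNC5C-like protein of inflammatory signalling.

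Time-dated pregnant macaques, labelled wild type in the lung series, received an intramuscular injection of saline (control), of the clinical drug, Celestone, which combines betamethasone phosphate and betamethasone acetate in equal parts at 0.25 mg/kg, or of betamethasone acetate alone (Beta-Ac) at 0.125 mg/kg. Fetal lung was sequenced from 3 animals per group: controls, the clinical drug after 4 hours and after 5 days, and Beta-Ac after 6 hours and after 5 days, with a labelled gestational age of day 124 to 130. Fetal hippocampus was sequenced from 5 animals per group, named CTL, BAC and CEL in the sample titles, 5 days after injection and labelled 130 to 136 days of gestation. The age labels conflict for the 9 fetuses that gave both tissues, which are labelled day 131 to 136 in hippocampus. The treatment and dose fields of BAC and CEL run opposite to their titles, but for the 3 animals of each group that also gave a lung library the lung labels match the titles, so BAC is taken here as Beta-Ac and CEL as the clinical drug. Each library came from a separate fetus within its tissue, and the dose differs between the drugs at every time.

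Semaphorins are secreted or membrane-bound guidance cues that signal mainly through plexins, and most class 3 semaphorins use a neuropilin as the ligand-binding partner, whereas SEMA3E binds PLXND1 directly. SLITs are secreted repellents read by ROBO receptors. Netrins attract through DCC and neogenin (NEO1) and repel through UNC5 receptors, whereas the netrin-G proteins are membrane-anchored and bind other partners. All of these families also act outside the nervous system, in the growing vessels and the branching airways of the lung, and in the developing hippocampus they guide entorhinal, commissural and mossy fibre axons.

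Library totals ran from 14.1 to 45 M reads in lung and from 18.3 to 29.3 M in hippocampus. In hippocampus, the summed CPM (counts relative to library size, scaled by the trimmed mean of M values, TMM) of the 7 neuronal markers was 3090 to 5230, and the neuronal marker NEUROD2 was at 0 in every lung group. One library stood apart. CTL212 held 929 CPM over the 3 choroid plexus markers measured, against 7.21 to 20.2 in the other hippocampal libraries. The CTL libraries also came from 4 sequencing runs, and a single CTL library shared a run with treated animals in each of the 2 runs that held all 3 groups. A gene was called when it changed at least 1.5-fold with p under 0.05 and an adjusted p under 0.1 over all genes of its tissue in the edgeR quasi-likelihood test. The adjustment was Storey's in lung and Benjamini-Hochberg's in hippocampus.

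The members were spread over a wide range of levels in saline-treated fetuses. Of the 47, 45 reached the read minimum in both tissues, and some stood at very different CPM in the 2 tables. CPM is not divided by transcript length, so levels are compared here across samples of a gene and not between genes, and the tissues stand side by side without a test because their tables were made separately. One gene per family is given here to show the scale, picked as the one with the highest CPM, which is no ranking of transcript levels. For receptors in control lung these were PLXND1, a semaphorin receptor of endothelium, at 570.4 ± 59.3 (SD, n = 3), ROBO4, the endothelial ROBO, at 96.1 ± 9.14, and NEO1 at 175 ± 18.7. The corresponding ligands were SEMA3C (260.3 ± 15.45), SEMA4C (74.8 ± 8.44), SEMA5B (20.2 ± 1.18), SEMA6D (116 ± 19.7), SEMA7A, the one member of its class, (19.7 ± 4.18), SLIT3 (239 ± 20.2) and NTN4, a basement membrane netrin, (191 ± 12.7). In hippocampus CTL they were PLXNA1 (498 ± 87.9, SD, n = 5), ROBO1 (198 ± 34.6), NEO1 (322 ± 44.6), SEMA3C (44.8 ± 11.96), SEMA4G (123 ± 15.65), SEMA5B (37.9 ± 2.88), SEMA6B (149.7 ± 15.8), SEMA7A (50.3 ± 17.0), SLIT1 (186 ± 32.25) and NTNG2 (131 ± 17.7).

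Some members were present in 1 tissue and nearly absent from the other. UNC5A, a netrin receptor of neurons, measured 0.402 to 0.773 CPM in control lung and 81.9 to 183 in hippocampus CTL. UNC5D was at 0 to 0.0502 CPM in control lung and 14.6 to 54.9 in hippocampus CTL. SEMA6B lay at 1.96 to 2.56 CPM in control lung and 128 to 165 in hippocampus CTL. In the opposite direction, UNC5CL measured 12.6 to 30.4 CPM in control lung and 0.12 to 0.3 in hippocampus CTL. The transmembrane semaphorins SEMA6A and SEMA4C measured 95.5 to 108 and 69.5 to 84.55 CPM in control lung and 0.08 to 0.501 and 0.778 to 1.12 in hippocampus CTL. Whether a difference in gene models between the tables has a part in any of these values was not tested.

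**Figure D1:**
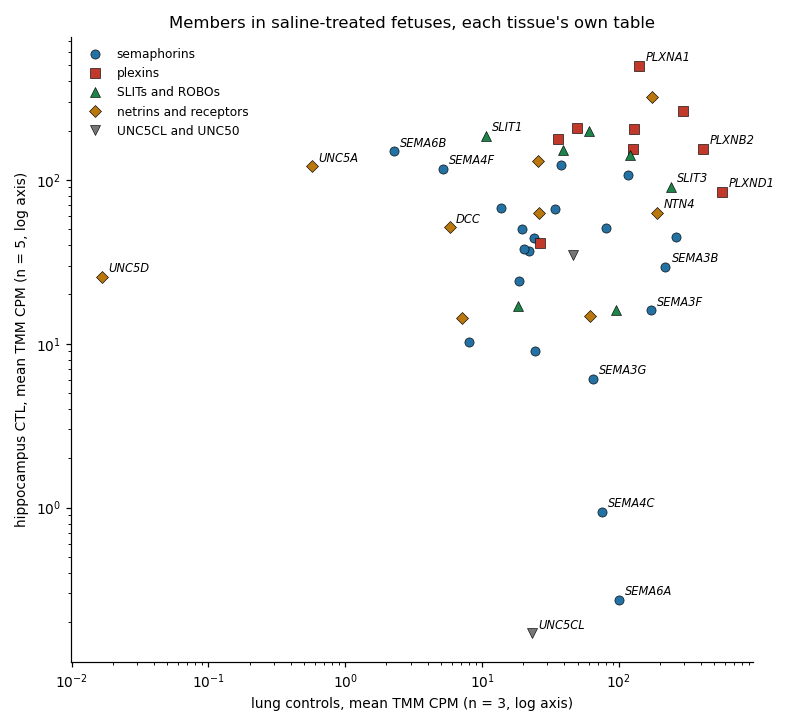
Mean CPM of each member in control lung (horizontal, 3 animals, log axis) against hippocampus CTL (vertical, 5 animals, log axis), with 1 point per gene and marker shapes for the families. UNC5D, UNC5A and SEMA6B lie far to the left and SEMA6A, SEMA4C and UNC5CL far down.

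Among themselves the members varied between control animals about as other genes did. The coefficient of variation had a median of 12.3% over members and 14.8% over all tested genes in control lung, with the lowest value for PLXNA1 (2.52%) and the highest for DCC (44.3%), the receptor for netrin attraction. In hippocampus CTL the medians were 20.5% and 18.2%, and the highest value was that of SEMA3B (104%), which came from CTL212. In BAC the members' median was 30.4% against 22% over all genes.

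In fetal lung 4 hours after the clinical drug, 2 guidance receptors and 1 ligand fell: the netrin receptors UNC5C and UNC5B and the repellent SEMA3A. These were 3 of 46 tested members (6.52%), all lower, while 7.4% of all tested genes were called in either direction, so the share of members called was near the background. The log2 fold change was below 0 for 31 members and above 0 for 15, with a median of -0.18 against 0.02 over all genes. The treated animals lay wholly above or below the controls for 17 members (37%), 12 of them lower, against 21.3% of all genes.

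SEMA3A, a secreted class 3 semaphorin that collapses growth cones and binds neuropilin-1, measured 6.84, 5.68 and 11.7 CPM in the 3 controls and 3.75, 2.24 and 1.82 at 4 hours of the clinical drug. Every treated animal was below every control. The difference was 3.03-fold lower (log2 -1.60, SE 0.34, edgeR adjusted p = 0.00865). At 6 hours of Beta-Ac the values were 6.48, 7.43 and 6.32 CPM, inside the control range (log2 -0.26, interval of 2 SE from -0.91 to 0.38, edgeR adjusted p = 0.6). At 5 days they were 4.70, 8.46 and 7.98 CPM with the clinical drug and 8.95, 5.56 and 7.63 with Beta-Ac, both groups overlapping the controls.

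UNC5C, a receptor for netrin repulsion, measured 6.54, 4.66 and 10.1 CPM in controls and 3.66, 1.65 and 1.44 after 4 hours of the clinical drug. The groups did not overlap, and the level was 3.02-fold lower (log2 -1.60, SE 0.39, edgeR adjusted p = 0.018). At 6 hours of Beta-Ac it was 12.2, 8.46 and 8.44 CPM, and at 5 days 12.03, 14.8 and 9.17 CPM with the clinical drug and 6.604, 11.5 and 13.05 with Beta-Ac. None of these 3 groups was called against control, with log2 fold changes of 0.45, 0.75 and 0.54. The SEMA3A and UNC5C calls at 4 hours held in all 13 alternative analyses, over -2.02 to -1.23 and -2.23 to -1.25. None of these could include the sequencing run, which was not available here for the lung libraries.

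UNC5B, the UNC5 receptor of vascular endothelium, measured 54.7, 79.0 and 51.9 CPM in controls and 31.6, 36.6 and 52.9 at 4 hours of the clinical drug. Clinical 4 h animal 3 lay above the lowest control. The log2 fold change was -0.62 (SE 0.21, edgeR adjusted p = 0.0749), and the call was lost in 5 of 13 alternatives, with Benjamini-Hochberg adjustment, in a fit of the 2 groups alone, and without clinical 4 h animal 1, clinical 4 h animal 2 or control animal 2. With Beta-Ac it was 41.2, 34.5 and 40.03 CPM at 6 hours and 43.9, 40.5 and 32.0 CPM at 5 days, in both cases below all 3 controls (log2 -0.68 and -0.67, edgeR adjusted p = 0.216 and 0.665, not called). The other receptors for netrins gave smaller values at 4 hours: DCC had a log2 fold change of -0.31 (interval of 2 SE from -1.19 to 0.58) and NEO1 of 0.04 (-0.17 to 0.25).

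Several membrane-bound semaphorins and plexins passed the adjusted p after the clinical drug but stayed under 1.5-fold. PLXNB1, a receptor for class 4 semaphorins, was higher at 416, 454 and 388 CPM against 303, 321 and 259.8 in controls (log2 0.51, SE 0.10, edgeR adjusted p = 0.00421). SEMA6D, a transmembrane semaphorin that binds PLXNA1, was higher at 160.4, 172 and 177 CPM against 111, 99.1 and 138 (log2 0.55, SE 0.11, edgeR adjusted p = 0.00523). In neither gene did the groups overlap. SEMA4B was also higher (log2 0.49, edgeR adjusted p = 0.0164), whereas SEMA6C (-0.51, 0.0106), PLXNA1 (-0.37, 0.0516), SEMA6A (-0.47, 0.0531), SEMA4D (-0.41, 0.0536), ROBO1 (-0.40, 0.0646) and PLXNC1 (-0.55, 0.0707) were lower. Without a fold threshold 12 members were called. That setting also admits more of all genes, so the 12 is not to be set against the 7.4% called with the threshold.

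No tested SLIT, ROBO or netrin was called at 4 hours. SLIT1, SLIT2 and SLIT3 had log2 fold changes of -0.12, 0.15 and -0.22, the ROBOs lay between -0.40 and 0.06, and NTN4, NTNG1 and NTNG2 lay between -0.44 and 0.15. Of these 10 genes, ROBO1 alone had an unadjusted p under 0.05, which 18.7% of all genes had.

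**Figure D2:**
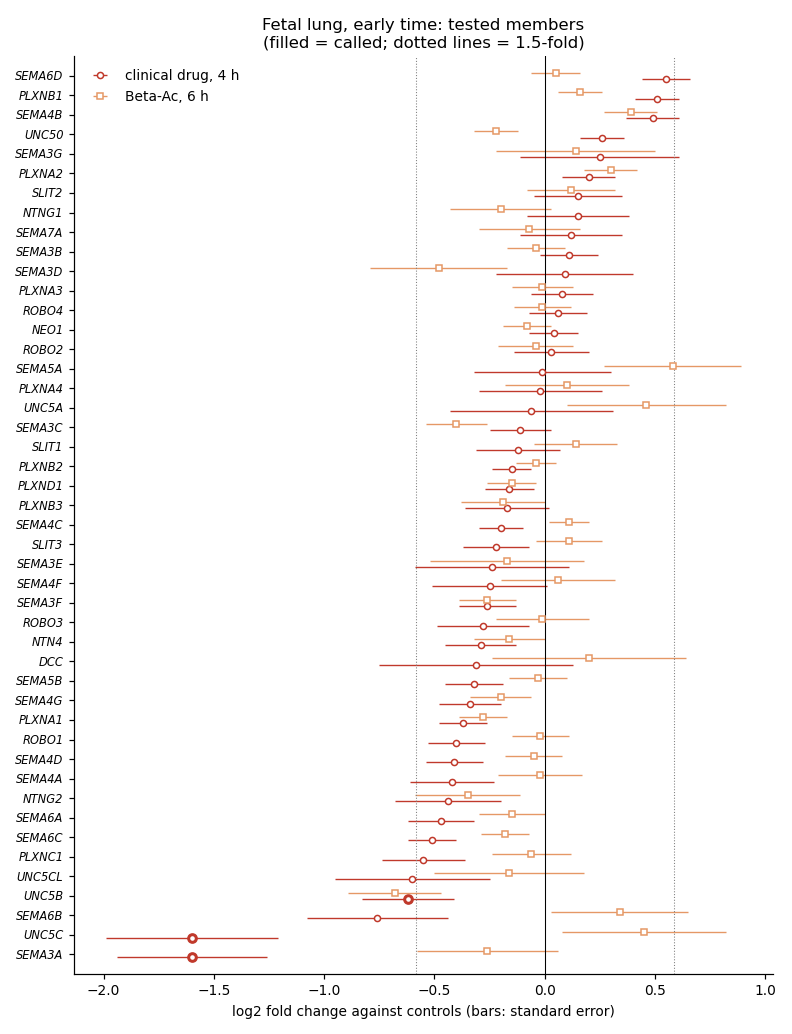
Log2 fold change against control (horizontal, bars 1 standard error) of the 46 tested members in fetal lung, 4 hours after the clinical drug (circles) and 6 hours after Beta-Ac (squares), sharing the same 3 controls. Filled symbols are called and dotted lines mark 1.5-fold: SEMA3A, UNC5C and UNC5B are filled on the left for the clinical drug, and no square is filled.

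At 6 hours of Beta-Ac no member was called, while 0.442% of all tested genes were. At an unadjusted p under 0.05 there were 6 of 46 members, against 11.5% of all genes, and DESeq2 called 1, UNC5B. The 3 members with the smallest p were SEMA4B (29.0 against 22.1 mean CPM, log2 0.39, edgeR adjusted p = 0.203), UNC5B, given above, and SEMA3C, a secreted class 3 semaphorin (197 against 260.3 mean CPM, log2 -0.40, edgeR adjusted p = 0.264). The library groups were apart for 10 members (21.7%) and for 16.3% of all genes.

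Compared directly, the clinical drug at 4 hours and Beta-Ac at 6 hours differed for 3 of 46 members, with 6.74% of all genes called. Each was lower with the clinical drug and none overlapped: UNC5C (log2 -2.04, SE 0.39, edgeR adjusted p = 0.00828), SEMA3A (-1.34, SE 0.34, 0.0268) and SEMA6B (-1.09, SE 0.31, 0.0414). The library groups were apart for 17 members (37%) and for 22.4% of all genes. SEMA6B, a transmembrane semaphorin, measured 1.13, 1.94 and 1.00 CPM with the clinical drug and 2.93, 2.94 and 2.70 with Beta-Ac. In a fit of these groups alone UNC5C was the 1 member called, and the SEMA6B call was also lost without a read filter and without clinical 4 h animal 3. Members at an adjusted p under the limit and below 1.5-fold included the prefix match UNC50 (0.48, 0.0112), SEMA6D (0.50, 0.0142) and PLXNB1 (0.35, 0.0357). Each of these was higher with the clinical drug, and other members that passed are not listed. Formulation, dose and the interval of 4 or 6 hours cannot be told apart in this comparison.

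Some summed marker levels differed between these groups, each sum carried mainly by a few genes. The summed level of 6 epithelial markers was 10700 to 16800 CPM at 4 hours of the clinical drug and 6410 to 9480 in controls, and that of 5 leukocyte markers was 25.5 to 70.5 and 77.1 to 111, so neither list overlapped. Over all lung libraries the surfactant genes SFTPC and SFTPB, at 2710 to 9650 and 3020 to 6190 CPM, made up most of the epithelial sum. NKX2-1 spanned 173 to 295 CPM, ABCA3 193 to 437, EPCAM 113 to 177 and CDH1 42.2 to 84.9. All 6 were highest in a library of the clinical drug at 4 hours. The sum does not separate surfactant gene levels from the amount of epithelium. The 7 markers listed for neurons summed to 59.5 to 73.1 and 80.3 to 111 CPM, but in lung this was almost all MEF2C (56.2 to 104), which is also expressed outside neurons, with NEUROD2 at 0 and the other 5 at no more than 3.89. The 5 endothelial markers summed to 2660 to 3550 and 2570 to 3130 CPM, and the 5 mesenchymal markers to 12000 to 14400 and 10800 to 16300. No measured epithelial, leukocyte, endothelial or mesenchymal marker was at 0 throughout a group. Their part in the members' differences was not tested, and in whole tissue fewer cells of a type and less RNA per cell cannot be told apart.

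The neuropilins, which hold class 3 semaphorins for the plexins and also bind VEGF, fell with SEMA3A. From lowest to highest, NRP1 measured 773, 908 and 943 CPM over controls and 436, 479 and 605 at 4 hours of the clinical drug (log2 -0.79, SE 0.15, edgeR adjusted p = 0.00449). NRP2 measured 18.4, 21.8 and 23.6 and then 8.82, 9.45 and 13.5 CPM (log2 -0.99, SE 0.25, 0.0229). Neither overlapped. At 6 hours of Beta-Ac NRP1 was 498, 627 and 754 CPM and NRP2 23.2, 35.8 and 38.3, neither called (log2 -0.48 and 0.61).

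The 3 lists of other pathway genes were chosen with earlier results of these data known, so their shares are description and no test. Of the 15 tested co-receptors and adhesion partners, 4 (26.7%, against 7.4% of all genes) were called lower and none higher at 4 hours of the clinical drug. Besides the neuropilins these were KDR, the main VEGF receptor of endothelium and a partner of neuropilin (log2 -1.16, SE 0.14, edgeR adjusted p = 0.000132), and LRRC4, a ligand-binding partner of netrin-G2 (-1.27, SE 0.27, 0.0092). Of 10 other ligands and modulators 2 (20%) were called higher: FLRT3, a ligand of UNC5 and ROBO1 co-receptor (0.78, SE 0.17, 0.0092), and BOC, a co-receptor of hedgehog signalling (0.61, SE 0.14, 0.0116). Of 44 intracellular effectors 1 (2.27%, below the share of all genes) was called, SRGAP3, a SLIT-ROBO signalling partner, lower (-1.20, SE 0.37, 0.0518). BOC was the 1 gene of the 3 lists called at 6 hours of Beta-Ac, when 0.442% of all genes were (0.67, SE 0.14, edgeR adjusted p = 0.0588), a call lost in 6 of 13 alternatives, and the SRGAP3 and BOC calls after the clinical drug were lost in 4 and 3.

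At 5 days no member was called against control with either drug, when 0% of all tested genes were called for the former drug and 0.00567% for Beta-Ac. With each drug 6 of 46 members had an unadjusted p under 0.05, against 4.39% of all genes with the clinical drug and 6.42% with Beta-Ac. DESeq2 called 1, NTNG2, with each drug. NTNG2, a membrane-anchored netrin-G that binds LRRC4, measured 25.2, 25.2 and 27.2 CPM in controls, 8.07, 6.54 and 10.9 with the clinical drug and 13.7, 12.2 and 12.1 with Beta-Ac. All 6 treated animals lay below all controls (log2 -1.61, SE 0.24, edgeR adjusted p = 0.195 and -1.03, SE 0.24, 0.641). The library groups were apart for 17.4% of members and 12.3% of all genes with the clinical drug. With Beta-Ac they were apart for 19.6% and 12.1%. The comparisons share their 3 controls. It was called for the clinical drug without the read filter and for Beta-Ac in a fit of those 2 groups alone. The next members by p were SEMA4B (0.36, 0.931) and UNC5CL (0.79, 0.931) with the clinical drug, and UNC5B, given above, and NTNG1 (-0.55, 0.727) with Beta-Ac, the last at -0.21 without control animal 1 and -0.75 without control animal 2.

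Between the drugs at 5 days no member was called, nor was any gene (0%), and DESeq2 called no member. At an unadjusted p under 0.05 there were 5 of 46 members, against 3.15% of all genes. The smallest p values were those of SEMA6D (101 with the clinical drug, 128 with Beta-Ac, log2 -0.34, interval of 2 SE from -0.56 to -0.13, edgeR adjusted p = 0.999), SEMA6B (0.89, 0.29 to 1.5, 0.999) and PLXNA2, a receptor for class 3 and class 6 semaphorins (0.34, 0.09 to 0.59, 0.999). The doses differed here too.

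Across time within the clinical drug, 8 of 46 members (17.4%) differed between 4 hours and 5 days, against 10.4% of all genes. At 4 hours SEMA6D (log2 0.76, SE 0.11, edgeR adjusted p = 0.000455), NTNG2 (1.16, SE 0.24, 0.00563) and NTNG1 (0.67, SE 0.23, 0.0525) were higher than at 5 days. UNC5C (-2.35, SE 0.39, 0.00136), SEMA3A (-1.40, SE 0.34, 0.0118), SEMA6B (-1.27, SE 0.31, 0.0137), UNC5CL (-1.39, SE 0.35, 0.0141) and PLXNC1, the receptor for SEMA7A (-0.60, SE 0.18, 0.0369), were lower.

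The groups did not overlap for any of the 8, and they were apart for 20 members (43.5%) in all and for 29.1% of all genes. UNC5CL measured 13.6, 13.2 and 19.0 CPM at 4 hours and 42.6, 40.5 and 37.1 at 5 days, and controls spanned 12.6 to 30.4. SEMA6D stood at 103, 96.5 and 102 CPM at 5 days. NTNG1, a netrin-G, measured 34.5, 27.8 and 24.9 CPM and then 20.7, 14.9 and 19.4. The calls for NTNG1 and PLXNC1 were lost in 4 and 2 of 13 alternatives, both of them without clinical 4 h animal 2 and without clinical 5 d animal 2, and the former also without a read filter and without clinical 4 h animal 1.

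Within Beta-Ac no member was called between 6 hours and 5 days (0.261% of all genes), and DESeq2 called none. At an unadjusted p under 0.05 there were 5 of 46 members, against 7.91% of all genes. PLXNA2 was 165, 132 and 173 CPM at 6 hours and 106, 114 and 114 at 5 days (log2 0.50, SE 0.12, edgeR adjusted p = 0.174). PLXNA1 (-0.37, 0.304) and NTNG2 (0.68, 0.399) followed.

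**Figure D3:**
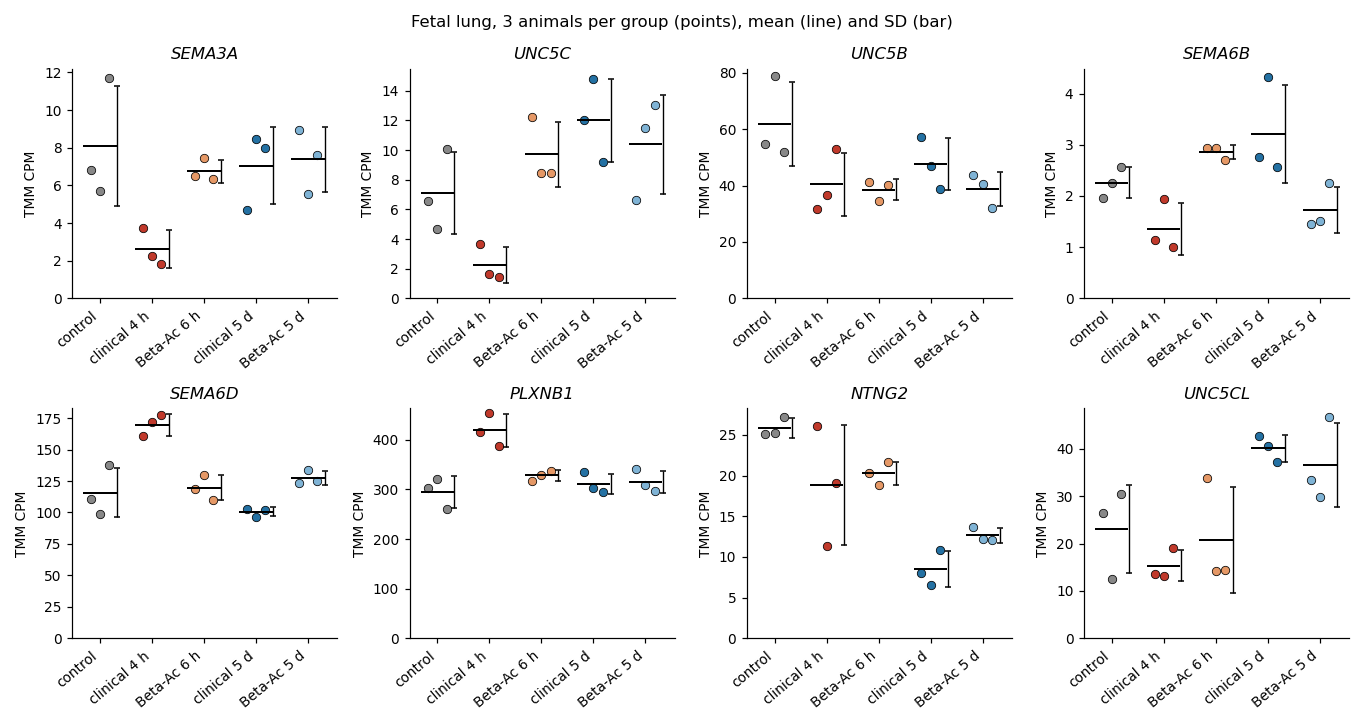
CPM of 8 members in fetal lung (vertical, from 0) by group, with points for single animals, a line for the mean and a bar for the SD (n = 3). SEMA3A and UNC5C are lowest in the clinical drug group at 4 hours, SEMA6D and PLXNB1 highest there, and the NTNG2 means are lowest in both 5-day groups.

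In fetal hippocampus 5 days after the clinical drug, the repellents SLIT1 and SLIT3 and the netrin receptor UNC5C were lower than in CTL, but none of these calls held when the sequencing run was a term in the fit. They were 3 of 46 tested members (6.52%), all lower, against 7.86% of all genes called in either direction. The log2 fold change was below 0 for 33 members and above 0 for 13, with a median of -0.23 against -0.02 over all genes. It was below 0 for all 9 plexins (-0.52 to -0.02, none called), all 6 tested netrin receptors and all 3 SLITs. In the other families it was below 0 for 11 of 20 semaphorins, 2 of 4 ROBOs and 1 of 3 netrins. The called genes were also the 3 members (6.52%) whose CEL animals all lay on one side of CTL, against 15.1% of all genes.

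SLIT1, a secreted repellent of forebrain axons, measured 223, 200.3, 144, 200.3 and 161 CPM in CTL092, CTL101, CTL113, CTL209 and CTL212. In CEL115, CEL120, CEL126, CEL238 and CEL245 it measured 104, 117, 102, 87.5 and 70.0 CPM, all below CTL. The level was 1.93-fold lower (log2 -0.95, SE 0.22, edgeR adjusted p = 0.0187). In BAC it ranged from 66.0 to 181 with a median of 143 CPM and overlapped both (log2 -0.46 against CTL, SE 0.22, 0.414).

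SLIT3, in the same order, measured 88.9, 91.7, 88.0, 126 and 60.7 CPM in CTL and 53.9, 53.3, 56.2, 58.9 and 44.2 in CEL. The groups did not overlap, with 58.9 the highest CEL value just under the CTL212 value of 60.7, and the level was 1.71-fold lower (log2 -0.77, SE 0.21, edgeR adjusted p = 0.0316). In BAC it ranged from 46.1 to 114 with a median of 62.6 CPM (log2 -0.33, 0.547). UNC5C measured 17.0, 14.0, 13.6, 15.4 and 12.1 CPM in CTL and 11.3, 10.3, 11.6, 5.77 and 3.82 in CEL, again apart (log2 -0.75, SE 0.28, edgeR adjusted p = 0.0837). In BAC it ranged from 7.77 to 17.2 CPM.

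SLIT2, the remaining SLIT, was 90.1 to 269 CPM in CTL (median 118) and 73.6 to 115 in CEL (median 85.9), not called (log2 -0.68, edgeR adjusted p = 0.114). UNC5D, a further netrin receptor, was 14.6 to 54.9 CPM in CTL (median 16.6) and 6.30 to 17.4 in CEL (median 11.1), not called (-1.20, 0.112). SEMA6D was the member with the smallest adjusted p among those higher in CEL, at 118 to 169 against 82.1 to 132 CPM (log2 0.42, SE 0.14, 0.0561), below 1.5-fold. DESeq2 and Storey's adjustment each called 7 members in CEL, all without a run term: SLIT1, SLIT3 and UNC5C together with SLIT2, UNC5D, SEMA3A (6.19 against 10.3 mean CPM, log2 -0.73, edgeR adjusted p = 0.13) and SEMA3F (-0.71, 0.132). The share of all genes called under these settings is not set beside the 7. The count over all genes moved over the alternatives too, with its range in the last section.

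These calls depended on whether the sequencing run was a term in the fit. With the term the CEL difference rests on CTL113 and CTL212 as controls. The other CTL libraries came from runs that held no treated animal. With run as a term the log2 fold changes and edgeR adjusted p were -0.72 and 0.131 for SLIT1, -0.48 and 0.275 for SLIT3, and -0.75 and 0.153 for UNC5C, with 958 genes called in all. For UNC5C the log2 fold change was also -0.75 without the term, so its adjusted p moved and its estimate did not. In the 2 runs that held all groups SLIT1 was 144 CPM in CTL113 against 102 to 117 in the CEL animals of its run, and 161 in CTL212 against 70.0 and 87.5 in those of the other, lower in each run. A fit of those 2 runs gave -0.70 and 0.163 for SLIT1, -0.47 and 0.324 for SLIT3 and -0.72 and 0.188 for UNC5C. That fit rests on the same controls and is no separate check. Among the 3 animals per group that also had a lung library, SLIT1 (-0.81, 0.0429) and SLIT3 (-0.72, 0.0388) were called and UNC5C (-0.42, 0.282) was not. The UNC5C call was lost in 7 of the 10 fits that left out 1 CTL or CEL animal.

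With run as a term 3 other members were called lower: SEMA3B, a class 3 semaphorin (-1.52, edgeR adjusted p = 0.0724), PLXNB2, a receptor for class 4 semaphorins (-0.62, 0.0812), and UNC5B (-0.71, 0.0618). In CTL212, the library with choroid plexus markers, SEMA3B was 84.4 and PLXNB2 254 CPM against 13.6 to 17.5 and 121 to 144 in the other CTL libraries. With run as a term and CTL212 left out, an analysis added after the data were seen that leaves CTL113 as the 1 control sharing a run with treated animals, no member and no other gene was called by edgeR. The log2 fold changes were then -0.46 for SLIT1, -0.76 for SLIT3, -0.29 for SEMA3B and -0.55 for UNC5B. Without a run term, leaving out CTL212 gave 6 calls, all lower: SLIT1, SLIT3 and UNC5C with SLIT2 (-0.81, 0.07), PLXNC1 (-0.68, 0.0155) and UNC5D (-1.35, 0.0904). The share of all genes called there is not set beside the 6. The 4 meningeal markers measured summed to 81.6 to 531 CPM in CTL, 55.6 to 797 in BAC and 37.4 to 182 in CEL, and the 6 markers of astrocytes and radial glia to 2270 to 3520, 2460 to 4180 and 3250 to 4670. Their part in the members' differences was not tested.

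**Figure D4:**
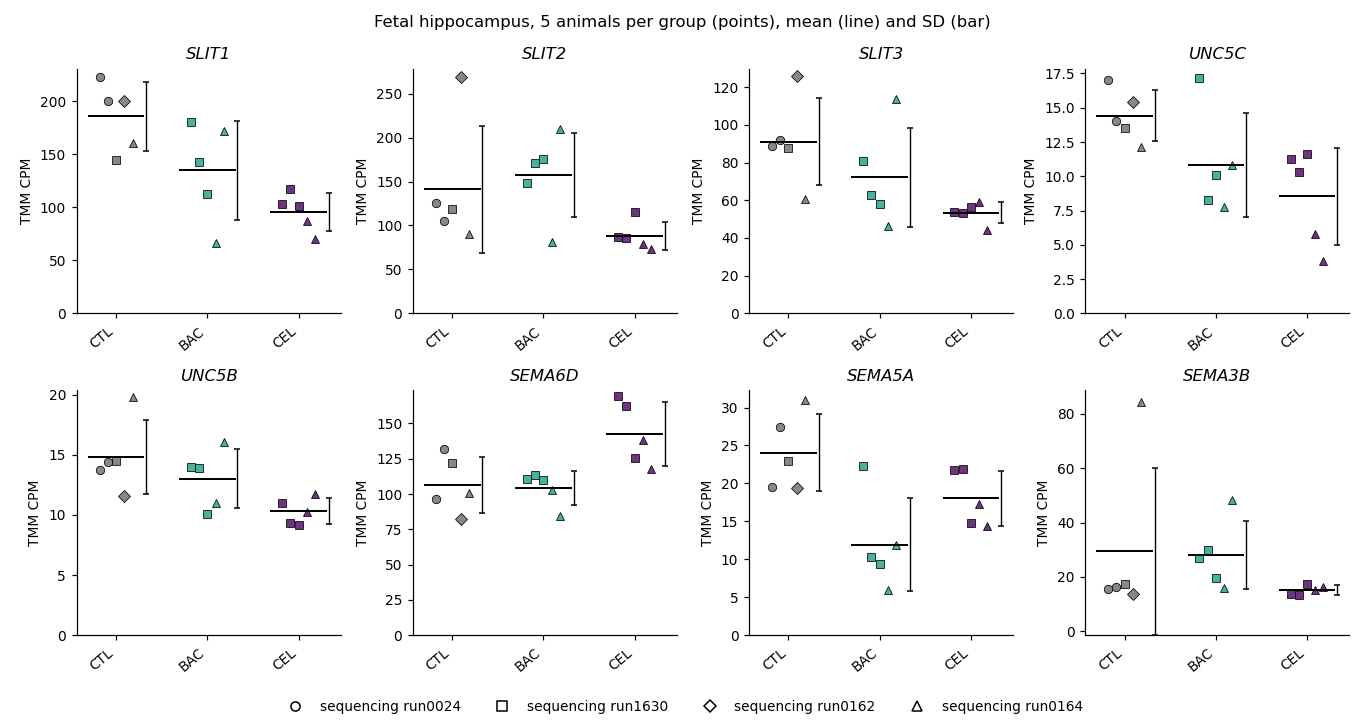
CPM of 8 members in fetal hippocampus (vertical) by group, with points for single animals shaped by sequencing run, a line for the mean and a bar for the SD (n = 5). SLIT1, SLIT3 and UNC5C are lower in every CEL animal than in every CTL animal, while the SEMA3B mean in CTL is raised by 1 library at 84.4 CPM.

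In BAC no member was called against CTL and no gene was (0%), while DESeq2 called 1 member, SEMA5A. At an unadjusted p under 0.05 there were 4 of 46 members, against 12.3% of all genes. SEMA5A, a transmembrane semaphorin with attractive and repulsive activity, measured 19.6, 27.5, 22.9, 19.4 and 31.0 CPM in CTL. In BAC128, BAC130, BAC136, BAC235 and BAC237 it measured 22.2, 10.3, 9.35, 5.91 and 11.9 CPM, with 4 animals below all CTL and BAC128 inside their range (log2 -1.01, SE 0.27, edgeR adjusted p = 0.24). Without BAC128 it was called. PLXNA2 (-0.45, 0.274) and SEMA3F, a ligand of neuropilin-2 (-0.69, 0.378), followed.

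CEL and BAC did not differ in any called member or gene (0%), while DESeq2 called 1 member, SLIT2. At an unadjusted p under 0.05 there were 6 of 46 members, against 13.5% of all genes. SEMA6D was higher in every CEL than in every BAC animal, at 118 to 169 against 84.5 to 113.5 CPM (log2 0.45, SE 0.14, edgeR adjusted p = 0.227). It was the 1 member (2.17%) with the groups apart, as were 2.76% of all genes. SLIT2 was 73.6 to 115 CPM in CEL and 81.0 to 210 in BAC (-0.83, SE 0.28, interval of 2 SE from -1.39 to -0.27, 0.251). The prefix match UNC50 followed (-0.22, 0.339). For SLIT1 the difference was -0.49 (-0.94 to -0.05), so the 2 drugs were not shown to act alike on it.

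**Figure D5:**
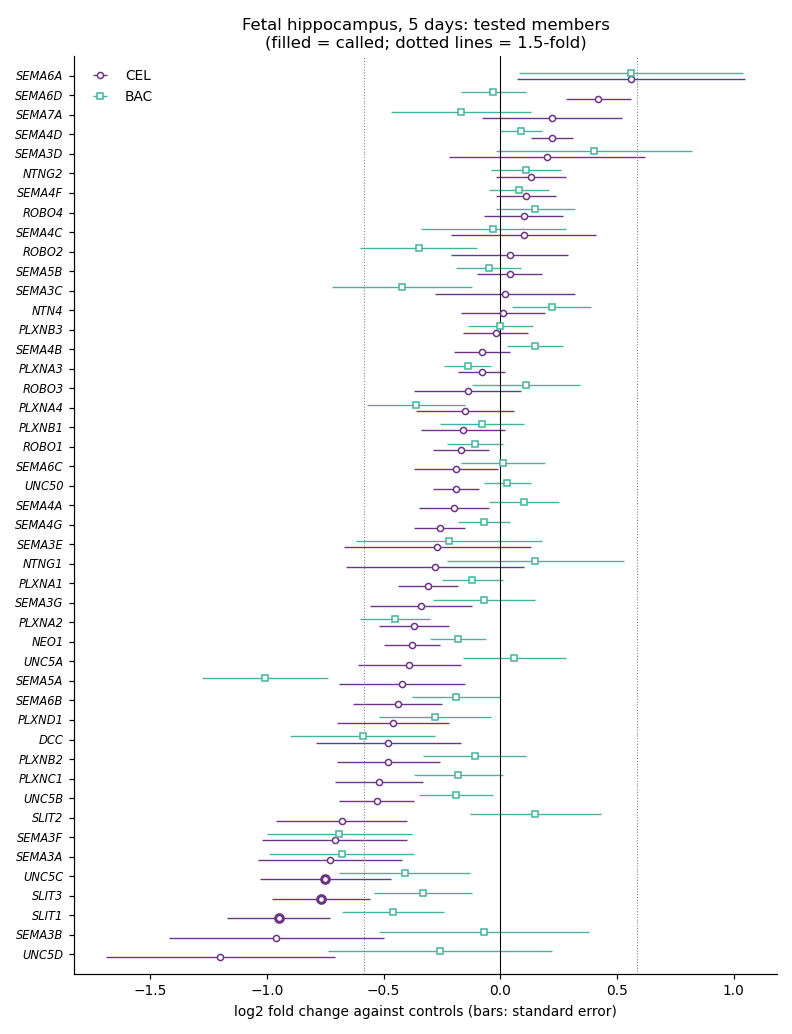
Log2 fold change against CTL (horizontal, bars 1 standard error) of the 46 tested members in fetal hippocampus for CEL (circles) and BAC (squares), which share the 5 CTL animals and include no run term. Filled circles mark SLIT1, SLIT3 and UNC5C, dotted lines mark 1.5-fold, and no square is filled.

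Of the other pathway genes in hippocampus, 1 of 16 co-receptors and adhesion partners (6.25%), none of 10 other ligands (0%) and 2 of 45 effectors (4.44%) were called in CEL, all lower, each share below the 7.86% of all genes. CHL1, a neural adhesion molecule and partner of neuropilin-1, was 298 to 507 CPM in CTL and 223 to 296 in CEL (log2 -0.76, SE 0.17, edgeR adjusted p = 0.0171). PAK1, a kinase acting below RAC1 and CDC42, (-0.80, SE 0.15, 0.0138) and FARP1, which acts with plexin A4, (-0.82, SE 0.15, 0.0138) were the effectors. With run as a term CHL1 and PAK1 were no longer called and FARP1 was (-0.63, 0.0775). The FARP1 call was lost in the fit of the 2 runs that held all groups (-0.61, 0.105) and with run as a term and CTL212 left out (-0.79, 0.306). NRP1 and NRP2 were not called in hippocampus (0.38 and -0.10). None of the 3 lists had a gene called in BAC.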

How the data were processed

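Raw gene counts were deposited by the authors as 1 table per tissue, from 15 lung and 15 hippocampus libraries. The labels name Bowtie 1.2.1.1 and featureCounts 1.5.1 for lung, and Bowtie2, featureCounts and edgeR for hippocampus, and the study's methods give Bowtie 2 for lung, so the aligner of the lung table is uncertain. Strand settings and the gene models are not given in the sources used here, so reads of overlapping genes could not be separated. Counts were tested per tissue with the quasi-likelihood test of edgeR 4.0.16 (R 4.3.3), TMM scaling and all groups in 1 fit, over 17644 lung and 17390 hippocampus genes that reached 7 reads in 3 or more libraries (lung) or 5 or more (hippocampus). Calls needed a 1.5-fold change, p under 0.05 and adjusted p under 0.1. The scripts were tested on simulated data. Alternatives were DESeq2 1.42.0, other scaling, filters and adjustment, 2-group fits, each animal left out, and, in hippocampus only, the sequencing run. The tables hold Ensembl identifiers, and a table of rhesus gene names gave a symbol to 15769 of 30246 in lung and 17621 of 32386 in hippocampus. Genes were named when called, when highest in CPM of their role, when under the read minimum, or as the 3 with the smallest p where none was called, and other pathway genes when called against controls. SEMA4D, ROBO1, UNC5D, SLIT2 and a few others that missed the fold or the adjusted p limit were named after their values were seen. Members, lists and tests were chosen with earlier results of these data known. No 2 libraries held identical counts.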

Additional observations from a re-analysis of the deposited data

Results flagged for a closer look

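In the hippocampus the highest animal of a group stood away from the other 4 in 7 of 138 gene and group combinations, and the criterion used, Dixon's critical value for a gap over the range, is set to mark about 1 in 20 groups by chance. That rate was not checked on these CPM values. In CTL, NTNG1 was 129 CPM in CTL209 (27.5 to 56.5 in the others) and SLIT2 was 269 in the same library (90.1 to 125). PLXNB2 was 254 in CTL212 (121 to 144), SEMA3B was 84.4 there (13.6 to 17.5), and SEMA6C was 66.5 in CTL101 (45.2 to 50.8). In BAC, SEMA3G was 9.16 in BAC237 (4.7 to 5.63) and SEMA6C was 79.1 in BAC235 (40.5 to 51.3). CTL212 is the library with 929 CPM of choroid plexus markers, and the part of other tissue in its values was not tested.

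In lung, the test of the difference itself set the clinical drug at 4 hours apart from Beta-Ac at 6 hours for SEMA3A (log2 -1.34), SEMA6B (-1.09) and UNC5C (-2.04). It set the clinical drug at 4 hours apart from 5 days for NTNG1 (0.67), NTNG2 (1.16), PLXNC1 (-0.60), SEMA3A (-1.40), SEMA6B (-1.27), SEMA6D (0.76), UNC5C (-2.35) and UNC5CL (-1.39).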

How the results depend on the processing

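The count of called members moved with the threshold and the tool, and the count over all genes, whose range is given below, moved too. Without a fold limit it was 12 for the clinical drug at 4 hours against control, 11 against Beta-Ac at 6 hours and 17 against 5 days, and 7 for CEL against CTL. DESeq2 gave 1 each for Beta-Ac at 6 hours, both drugs at 5 days against control, BAC against CTL and CEL against BAC, and 7 for CEL against CTL, as did Storey's adjustment there. Without a filter the clinical drug at 5 days gave 1, and fits of 2 groups alone gave 1 for Beta-Ac at 5 days and 1 for the clinical drug at 4 hours against Beta-Ac at 6 hours. With run as a term and without CTL212, CEL against CTL gave 0 and CEL against BAC 1. With run as a term and all animals CEL against CTL gave 3 as before, but none of the 3 genes was among those called without it.

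Leaving out 1 animal gave 3 to 5 calls for the clinical drug at 4 hours against control (5 without clinical 4 h animal 1 or control animal 1), 2 to 4 against Beta-Ac at 6 hours and 6 to 10 against 5 days. It gave 0 to 1 for Beta-Ac at 6 hours against control and against 5 days (1 without Beta-Ac 6 h animal 2), 2 to 6 for CEL against CTL (5 without CTL113, 6 without CTL212), 0 to 1 for BAC against CTL (1 without BAC128), and 0 in the other comparisons. Over 49 single-gene results and 733 alternatives, 667 kept their direction and call, 54 lost a call and 11 gained one. The 1 that changed direction was SEMA3F in BAC against CTL, at 0.08 with run as a term and without CTL212. The cause was not tested. The count over all genes, with its range over all these alternatives, was 1306 (844 to 2104) for the clinical drug at 4 hours against control, 1189 (285 to 2389) against Beta-Ac at 6 hours and 1833 (1258 to 3306) against 5 days. It was 78 (8 to 284) for Beta-Ac at 6 hours against control and 46 (3 to 196) against 5 days, and 0 (0 to 16), 1 (0 to 40) and 0 (0 to 8) for the clinical drug, Beta-Ac and their difference at 5 days. In hippocampus it was 1366 (0 to 3816) for CEL, 0 (0 to 184) for BAC and 0 (0 to 186) between them. No paired analysis was possible because each fetus belongs to 1 treatment group and lung replicate numbers only name animals. SEMA3A, UNC5C and SEMA6B in lung lie at a few CPM, where counting error limits the precision most.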
